A study of Mus musculus with 4 samples.

Results

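The mRNAs of 9 factors of nonsense-mediated decay (NMD), *Upf1*, *Upf2*, *Upf3a*, *Upf3b*, *Smg1*, *Smg5*, *Smg6*, *Smg8* and *Smg9*, were followed after knockdown of *Setd2* in NIH/3T3 cells, an established line of mouse embryonic fibroblasts. Members were chosen by gene symbol, and every transcript of these genes in the deposited table was used, which gave 10 transcripts of 9 genes out of 34200 transcripts of 21945 genes. *Upf1* had 2 tested transcripts and each of the other 8 genes had 1. Cells were transfected with *Setd2* siRNAs (KD) or with Scrambled siRNA (WT), at 10 nM in either case, and polyadenylated RNA was sequenced 48 h later in 2 libraries per group. *Setd2* encodes the methyltransferase that trimethylates lysine 36 of histone H3. Both groups are the same cell line and both were transfected, so they differ in the siRNA only. The *Setd2* siRNAs were given together as 1 treatment, so effects of single siRNAs cannot be told apart.

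NMD degrades mRNAs on which the ribosome terminates in an unusual setting, for example upstream of an exon junction, behind a short upstream reading frame or far from the poly(A) tail. *Upf1* encodes an RNA helicase that is phosphorylated by the Smg1 kinase, whose complex also holds Smg8 and Smg9. Upf2 and Upf3b bridge Upf1 to the exon junction complex, Upf3a is the paralogue of Upf3b, Smg6 is an endonuclease that cuts the target mRNA, and Smg5 helps to bring in decapping and deadenylation. The mRNAs of several of these factors are known to be NMD targets themselves.

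*Smg5*, *Smg8*, *Smg9* and the *Upf1* transcript Upf1-202 were higher in KD, with levels 1.46 to 1.71 times those of WT. These calls rest on a trend of the variance with the mean level: without it 0 of the 10 transcripts were called (adjusted p from 0.116 to 0.140 for these 4), and 127 transcripts of the whole table. With the trend and over all transcripts, none of the 10 was called lower. *Smg1*, *Smg6* and the second *Upf1* transcript lay close to their WT levels, *Upf3a* was 1.19 times and *Upf2* and *Upf3b* were 0.832 and 0.761 times the WT level, without passing the test. Calls were those of limma's moderated test with Benjamini-Hochberg adjustment over all 34200 transcripts at an adjusted p under 0.05. By this test 4 of the 10 transcripts were higher, against 5.44% of all transcripts, and 0 were lower, against 4.24%. Among all transcripts tested, 9.68% were called in either direction. At an unadjusted p under 0.05, 7 of the 10 transcripts passed, against 28.2% of all transcripts. The median log2 difference (KD minus WT) of the 10 transcripts was 0.16, against −0.011 for all transcripts and 0.048 for the 18808 transcripts whose mean over the libraries was 100 normalised estimated counts or more. The NMD factors all belonged to the latter, with means from 1257 to 8330, and calls were more frequent at such levels. In a fit and adjustment of these 18808 transcripts alone, 15.6% of them were higher and 10.8% lower. Of the 10 NMD factor transcripts, 4 were then higher and 1, *Upf3b*, was lower.

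The deposited table gives the mean of each transcript over the 4 libraries and the variances around it, from which the level in each group was recovered. A level is the exponential of the group's mean natural log, minus the 0.5 counts that had been added, in normalised estimated counts. Single libraries are not shown, but the variance within groups limits where they can lie, and these limits are given as possible ranges. They decide whether the KD and WT libraries of a transcript can overlap. For 8 of the 10 transcripts no overlap was possible, for *Smg1* it was possible, and for Upf1-201 at least 1 KD library must have lain within the span of the WT libraries or the reverse. Among all transcripts, overlap was impossible for 54.8%, so that 8 of 10 is to be read against a high share. An exact permutation test of 2 against 2 libraries cannot give a two-sided p under 0.333. All p-values given are from the fit across all transcripts, unless another fit is named. They set each difference against a variance taken partly from these libraries and partly from the other transcripts. The spread between these libraries may be technical, since the labels do not say that replicates were separate cultures.

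*Setd2* itself was at a level of 3680 in WT and 923 in KD, a log2 difference of −1.99 (standard error 0.081, adjusted p = 0.0144), with no overlap possible between the libraries. The 7 fibroblast markers were all detected, between 2723 and 388100 counts per gene, and their summed level was 1238000 in WT and 1109000 in KD. Markers of epithelium, leukocytes, endothelium and neurons summed to at most 427 counts in either group, and *Epcam*, *Krt18* and *Rbfox3* were not in the table. Library depths are unknown. Levels are relative to all RNA of the culture, so fewer cells of a kind and less RNA per cell cannot be told apart.

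**Figure D1:**
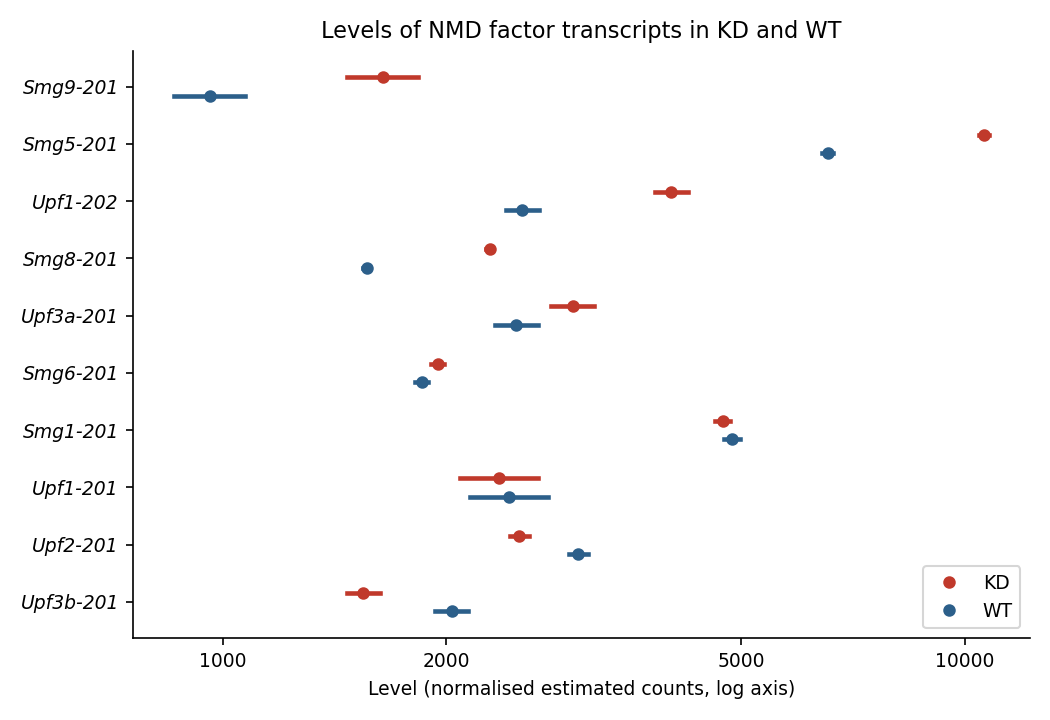
Level of each NMD factor transcript in normalised estimated counts (log axis) in KD (red) and WT (blue). Points are group levels (n = 2 libraries each) and bars the possible range of single libraries. The KD and WT bars are apart for all transcripts except *Smg1*, where they overlap, and Upf1-201, where they almost coincide. Among all transcripts of the table, overlap was impossible for 54.8%.

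*Upf1* is the only one of the 9 genes for which more than 1 transcript was tested, and 1 of its transcripts was called. Both are coded on the minus strand of chromosome 8 (GRCm38, GENCODE M21). Upf1-201 (ENSMUST00000075666.7, chr8:70331525-70353278) is 4618 bases long, and Upf1-202 (ENSMUST00000215817.1, chr8:70331525-70353211) is 4518 bases long. Upf1-201 has 67 more bases at its 5′ end and a further 33 bases at the 3′ end of exon 7, at chr8:70339982-70340014. The 33 bases are in frame and add 11 codons, from codon 348 on. They lengthen the regulatory loop of the helicase core, which is known to influence how it holds RNA and unwinds. The stretch is shown in both transcripts with 27 bases on each side, because reads across it and at the 5′ end are all that separates the transcripts. Capitals mark the extra bases.

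Upf1-201: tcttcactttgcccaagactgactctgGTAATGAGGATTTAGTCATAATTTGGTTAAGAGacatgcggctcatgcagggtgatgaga

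Upf1-202: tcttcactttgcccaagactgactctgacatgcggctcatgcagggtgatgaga

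Upf1-202, without the extra bases, was at 2533 in WT (possible range of a library 2407 to 2667) and at 4023 in KD (3822 to 4234). Every KD library therefore lay above every WT library. The log2 difference was 0.67 (standard error 0.084, 95% confidence interval 0.45 to 0.89, adjusted p = 0.0248). Upf1-201, with the extra bases, was at 2430 in WT (2155 to 2741) and at 2358 in KD (2090 to 2659), so the groups overlapped. Its log2 difference was −0.044 (standard error 0.134, interval −0.40 to 0.31, adjusted p = 0.869).

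The transcripts thus had nearly equal levels in WT, with Upf1-202 making up 51.0% of their sum, and Upf1-202 made up 63.1% in KD. Their ratio was 1.04 in WT and 1.71 in KD. The 2 log2 differences were 0.71 apart. How the transcripts vary together between libraries is unknown, so this gap was not tested. Its standard error is 0.100 if they rise and fall together, 0.189 if they vary independently and 0.248 if one falls as the other rises, on 2 residual degrees of freedom. Reads from the shared sequence are divided between the transcripts by the quantification, and the uncertainty of that division amounted to 26.4% of the variance within groups for Upf1-201 and 84.3% for Upf1-202. Summed over both transcripts, the *Upf1* level was 4964 in WT and 6380 in KD, a ratio of 1.29, without a test.

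**Figure D2:**
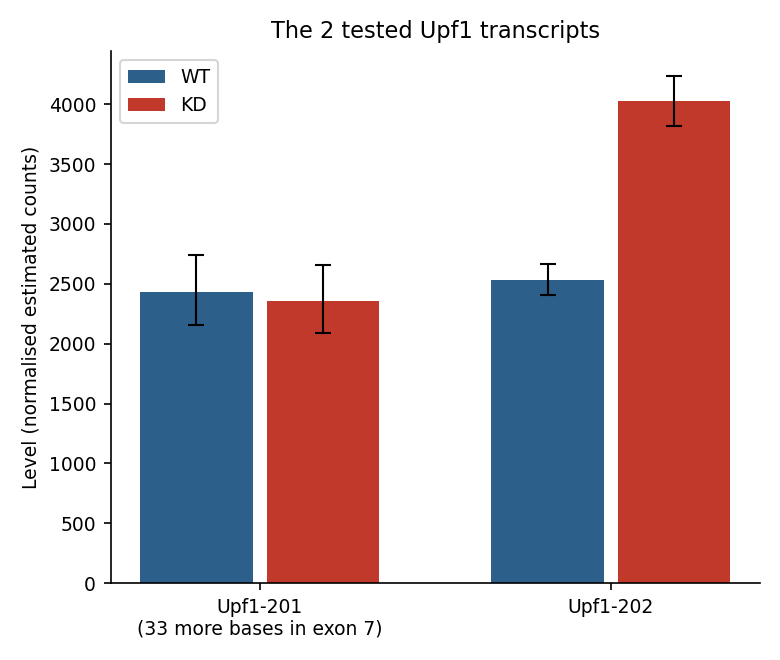
Level of the 2 tested *Upf1* transcripts (y axis, normalised estimated counts) in WT (blue) and KD (red). Bars are group levels (n = 2 libraries) and error bars the possible range of single libraries, which overlap for Upf1-201 and are apart for Upf1-202 (2533 in WT and 4023 in KD).

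Upf2 and the Upf3 proteins connect Upf1 with the exon junction complex. *Upf2* (ENSMUST00000060092.12, chr2:5951469-6056703, plus strand) was at 3016 in WT (2929 to 3106) and 2510 in KD (2438 to 2585). All KD libraries lay below the WT libraries, but the log2 difference of −0.26 (standard error 0.075, interval −0.46 to −0.068) did not pass the adjustment (adjusted p = 0.100). *Upf3b* (ENSMUST00000076265.12, chrX:37091678-37110322, minus strand) was at 2036 in WT (1932 to 2145) and 1549 in KD (1470 to 1632). Here too the KD libraries were the lower ones, with a log2 difference of −0.39 (standard error 0.090, interval −0.63 to −0.16, adjusted p = 0.0648). When the test was fitted and adjusted over only the 18808 transcripts that averaged 100 counts or more, 26.4% of them were called. In that fit the adjusted p of *Upf3b* was 0.0303 and that of *Upf2* was 0.0509.

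*Upf3a* (ENSMUST00000043767.8, chr8:13785615-13799193, plus strand), the paralogue of *Upf3b* on an autosome, was at 2489 in WT (2328 to 2660) and 2962 in KD (2772 to 3166). Its libraries were higher in KD, and its log2 difference was 0.25 (standard error 0.094, interval 0.0047 to 0.50, adjusted p = 0.171). *Upf3a* and *Upf3b* differed in the sign of their values, and neither passed the test over all transcripts.

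The Smg1 kinase phosphorylates Upf1, and Smg8 and Smg9 restrain its activity. The kinase and its partners had different values. *Smg1* (ENSMUST00000032891.14, chr7:118131308-118243637, minus strand) was at 4859 in WT (4740 to 4980) and 4718 in KD (4603 to 4836). Its possible ranges overlapped, with a log2 difference of −0.042 (standard error 0.069, interval −0.22 to 0.14, adjusted p = 0.737).

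*Smg8* (ENSMUST00000020801.13, chr11:87077732-87086774, minus strand) was at 1564 in WT (1548 to 1581) and 2290 in KD (2266 to 2314), so both KD libraries exceeded both WT libraries. The log2 difference was 0.55 (standard error 0.075, interval 0.35 to 0.75, adjusted p = 0.0272). *Smg9* (ENSMUST00000002280.10, chr7:24399619-24422778, plus strand) rose from 961 (861 to 1073) in WT to 1644 (1472 to 1835) in KD. This was the largest difference among the 10 transcripts, at 0.77 (standard error 0.131, interval 0.43 to 1.12, adjusted p = 0.0380), and also one of the least precise.

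The spread within groups differed widely between these mRNAs. It was 0.015 on the log2 scale for *Smg8*, the smallest of the 10, 0.159 for *Smg9*, and 0.174 for Upf1-201, the largest. For *Smg8* and *Smg6* the libraries of a group differed by less than the uncertainty of assigning their reads, which was 0.032 for both. The moderated test draws such small variances toward those of other transcripts of similar level, so the standard error of *Smg8* is larger than its own spread.

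Smg5 and Smg6 act after phosphorylation of Upf1. *Smg5* (ENSMUST00000001451.10, chr3:88336260-88362338, plus strand) was the most abundant of the 10 transcripts, at 6535 in WT (6433 to 6638) and 10618 in KD (10452 to 10786). All KD libraries lay far above the WT libraries, with a log2 difference of 0.70 (standard error 0.063, interval 0.54 to 0.87) and an adjusted p of 0.0181, the lowest of the 10. *Smg6* (ENSMUST00000045281.12, chr11:74925823-75164448, plus strand) was at 1854 in WT (1818 to 1891) and 1950 in KD (1912 to 1989). Although its libraries could not overlap, the log2 difference was 0.073 (standard error 0.076, interval −0.13 to 0.27, adjusted p = 0.585).

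**Figure D3:**
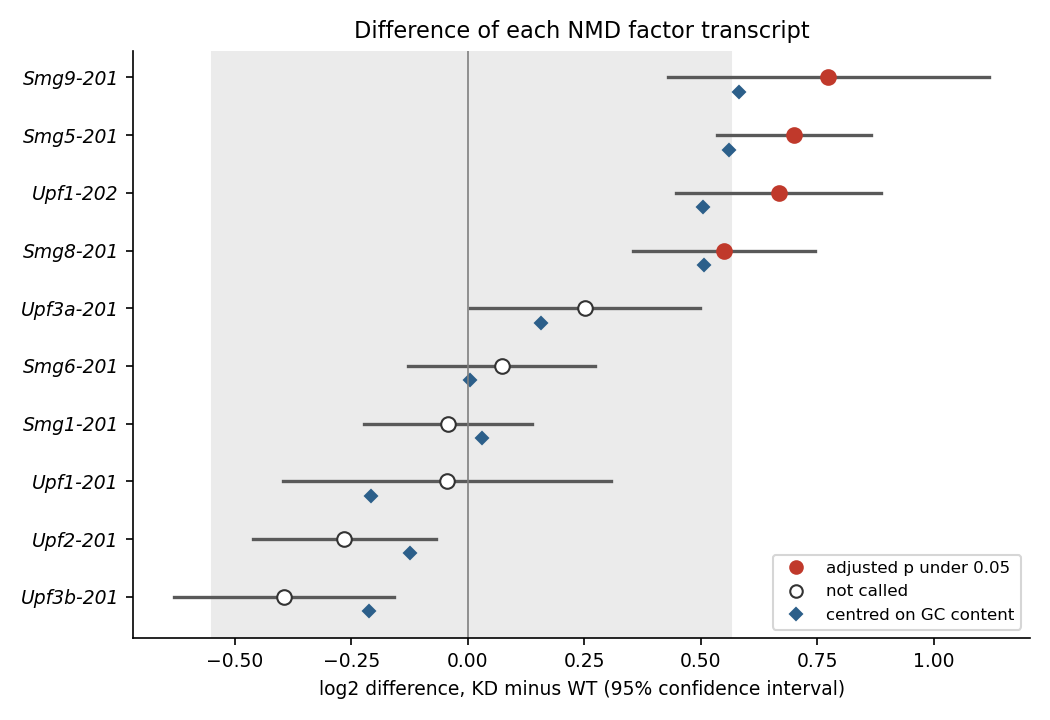
Log2 difference (KD minus WT) of each NMD factor transcript with its 95% confidence interval. Red circles passed the test, white circles did not, blue diamonds are the differences centred on transcripts of like GC content, and the grey band holds the transcripts between the 10th and the 90th percentile among those that averaged 100 counts or more. The 4 called transcripts lie between 0.55 and 0.77.

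Levels per kilobase allow transcripts of different length to be compared. By this measure *Smg5* was also the most abundant transcript in WT, at 1469 counts per kb, followed by *Upf3a* (1210) and *Upf3b* (869). *Upf2* (583), Upf1-202 (561), Upf1-201 (526) and *Smg8* (486) came next, and each of these had a possible range that met that of its neighbour in the order. *Smg9* (429) was lower, although its possible range overlapped with that of Upf1-201. *Smg6* (317) and *Smg1* (312) were lowest, with overlapping ranges. In KD, *Smg5* (2387) and *Upf3a* (1440) kept their places. Upf1-202 (890), *Smg9* (733) and *Smg8* (712) then came before *Upf3b* (661). The possible range of *Smg9* overlapped with those of *Smg8* and of *Upf3b*. In both groups this order ranks single transcripts, with Upf1-201 and Upf1-202 apart. It does not give the place of the *Upf1* gene, whose summed level per kb was not computed and exceeds that of either transcript.

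GC content moved with the differences in the whole table and in these transcripts. Over 50 classes of GC content, the median log2 difference of all transcripts went from −0.40 in the class with the lowest GC content to 0.18 in the class with the highest. The 4 called NMD factor transcripts had a GC content of 50.2% to 60.3%, and the 6 others 42.5% to 57.9%, so *Upf3b* (42.5%) and *Upf2* (43.5%) were at the low end and *Smg9* (60.3%) at the high end. Whether GC content has a part in these differences as measured was not tested. After each difference was centred on the median of its GC class, *Smg5* was at 0.56 (adjusted p = 0.0278), *Smg8* at 0.51 (adjusted p = 0.0383) and Upf1-202 at 0.50 (adjusted p = 0.0459), and these were still called. *Smg9* was at 0.58 and no longer passed (adjusted p = 0.0768). *Upf3b* moved to −0.21, *Upf2* to −0.12, and *Smg1* from −0.042 to 0.031. *Upf3a* moved to 0.16, *Smg6* to 0.0048, and Upf1-201 from −0.044 to −0.21. The *Upf1* transcripts have nearly the same GC content (57.9% and 58.0%) and fell in the same class, so their gap of 0.71 was the same after centring.

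**Figure D4:**
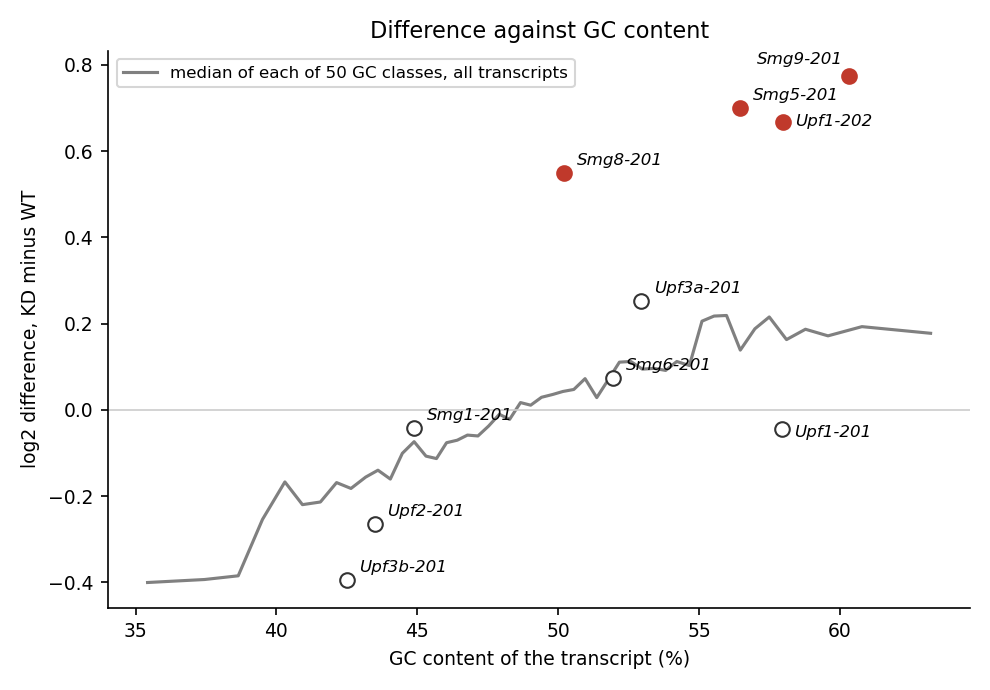
Log2 difference (KD minus WT) against the GC content of the transcript for the NMD factors, with the median of each of 50 GC classes of all transcripts as a grey line. Red points passed the test, white points did not. The line goes from −0.40 to 0.18. The 4 red points lie above it, as do the white points of *Smg1* and *Upf3a*. *Smg6* lies close to it, and Upf1-201, *Upf2* and *Upf3b* lie below it.

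In sequence features linked to NMD, the called NMD factor transcripts overlapped with the others. The 3′UTRs of the called transcripts were 221 (*Smg8*) to 1230 (*Smg5*) bases long, and those of the others 719 (*Upf3a*) to 4233 (*Smg1*) bases, where the median of tested protein-coding transcripts was 782 bases. An ATG upstream of the start codon was present in 2 of the 4 called transcripts (*Smg5* and *Smg9*) and in 2 of the 6 others (*Smg1* and *Upf2*). Among tested protein-coding transcripts, 52.6% have such an ATG. An exon junction more than 50 bases after the stop codon was present in 0 of the 10. The transcripts have 4 (*Smg8*) to 63 (*Smg1*) exons. The annotation holds 45 transcripts of these genes, of which 17 are retained introns and 3 are annotated as NMD substrates, and the 10 tested were those with its basic tag. The others were not analysed here.

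All 9 genes were matched by symbol to a RefSeq promoter window on GRCm38.p6, from 250 bases before to 50 after the gene's start, and short motifs were searched on both strands. GCATGCGC, the core of the motif of NRF1, was present in *Upf1* and *Smg9* (2.71% of 32851 windows). GGGCGGGG, a GC box, was present in *Upf1*, *Upf2*, *Smg1* and *Smg6* (17.6%), and CCAAT in *Upf3a*, *Upf3b*, *Smg1* and *Smg8* (37.4%). AAGATGGC was present in *Upf3b* (2.75%), while CCGGAAGT (3.89%), CACGTG (7.15%) and TGACGTCA (1.79%) were in none of the 9 windows. The window of *Smg5* held none of these motifs, and no motif was shared by the 4 genes with a called transcript. The stretches with the rarest motif found in more than 1 gene are shown, with GCATGCGC in capitals and each written 5′ to 3′ on the gene's strand, for *Smg9* at chr7:24399572-24399631 (plus strand, where the motif spans the RefSeq start and lies within Smg9-201 of GENCODE) and for *Upf1* at chr8:70353470-70353529 (minus strand, at the far end of the window). In *Upf1* and *Smg9* the letters overlap with their own match on the other strand, and the *Upf1* stretch also holds the GC box. The *Upf1* motif lies at −244 to −237 from the RefSeq start. The called Upf1-202 starts downstream of Upf1-201 (chr8:70353211 against chr8:70353278), so the motif lies further from its start than from the RefSeq start. Windows around the starts of single transcripts were not searched.

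Smg9: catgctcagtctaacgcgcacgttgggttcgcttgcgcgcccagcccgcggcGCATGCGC

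Upf1: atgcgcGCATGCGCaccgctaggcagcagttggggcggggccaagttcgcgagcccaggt

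The genes around the NMD factors were followed in 8 lists. Their calls are to be read against 5.44% of all transcripts called higher and 4.24% called lower. After centring on GC content, 0 calls were left in the lists of the exon junction complex, of the exosome and of the kinases, 1 in the decapping list and 2 each in the termination and deadenylation lists, and without the trend of the variance 0 were left in any of the 8. Of 14 transcripts of 8 other NMD factors, 1 was higher and 0 were lower, and the median was 0.048. The transcript that rose was *Ruvbl2*, which encodes an AAA+ ATPase of the chaperone complex of Smg1-like kinases, at 5476 in WT and 9294 in KD (log2 difference 0.76, standard error 0.071, adjusted p = 0.0183). *Nbas* was at 0.19, *Pnrc2* at −0.14 and the most abundant *Dhx34* transcript at 0.22, each without a call.

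Of 36 transcripts of 12 genes of the exon junction complex, 1 was higher and 0 were lower (median 0.13). This was *Eif4a3*, the RNA-clamping subunit of the complex, at 5335 in WT and 7056 in KD (log2 difference 0.40, standard error 0.071, adjusted p = 0.0405). Of 31 transcripts of 13 factors of termination and of the cap and poly(A) tail, 1 was higher and 3 were lower (median 0.14). Of the 4 transcripts of *Pabpc4*, a poly(A)-binding protein, the most abundant was higher (0.58) and 3 were not called. Both called transcripts of *Ncbp2*, a subunit of the nuclear cap-binding complex, were lower at −0.60 and −2.17, and 1 minor transcript of 8 of *Stau2*, a double-stranded RNA-binding protein, at −0.84. The release factor genes *Etf1* (0.23) and *Gspt1* (0.14 and 0.035) were not called.

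Among the factors that degrade the mRNA, calls went in both directions. Of 33 transcripts of decapping and 5′-3′ decay, 3 were higher and 1 was lower (median 0.091). The main transcript of *Dcp2*, the decapping enzyme, fell from 2529 to 1556 (log2 difference −0.70, standard error 0.074, adjusted p = 0.0201), while 2 transcripts of *Dcps*, the scavenger decapping enzyme (0.52, and 2.36 for one at 4.36 counts in WT), and 1 of 3 transcripts of *Lsm2* (0.61) rose. Of 41 transcripts of deadenylation factors, 0 were higher and 4 were lower (median 0.0026), namely *Btg2* (−0.88), *Tob1* (−0.67), and 1 transcript each of the deadenylases *Cnot7* (−0.61) and *Cnot6l* (−0.53). The *Cnot7* transcript that fell, from 1553 to 1017, is a minor one, and the main *Cnot7* transcript was at 3644 in WT and 3856 in KD (log2 difference 0.082) without a call. Of 31 transcripts of the exosome and SKI complex, 3 were higher and 0 were lower (median 0.18). These were *Skiv2l*, the helicase of the SKI complex (0.42), 1 of 3 transcripts of the nuclease *Dis3l* (0.56) and a minor transcript of *Exosc1* (ENSMUST00000112123.2, 6.52 counts in WT and 41.5 in KD). A second *Dis3l* transcript of like abundance was at 546 in WT and 559 in KD (log2 difference 0.034), and the main *Exosc1* transcript was at 0.33, neither of them called. For several transcripts named here, the uncertainty of assigning reads exceeded the variance within groups. It amounted to 5486% of that variance for the called *Dis3l* transcript and 2092% for the second. It was 1263% for the called *Exosc1* transcript and 2289% for the minor *Dcps* transcript. Whether the division of reads has a part in these calls was not tested.

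Of 19 transcripts of 10 other kinases of the Smg1 family and their chaperones, 2 were higher and 1 was lower (median 0.11). Of *Telo2* and *Pih1d1*, which encode chaperones of these kinases, 1 transcript each rose (0.79 and 0.66). The more abundant *Telo2* transcript was at 0.38 without a call. *Prkdc*, the catalytic subunit of DNA-dependent protein kinase, fell (−0.60).

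The last list holds mRNAs that are known from other work to be degraded by NMD. Of 40 transcripts of 20 such genes, 8 were higher (20.0%) and 2 were lower (5.00%), with a median of 0.13. Over all transcripts, 5.44% were higher and 4.24% lower. Of the 40, 33 averaged 100 counts or more, where calls were more frequent. *Chac1* rose from 2775 to 6439 (log2 difference 1.21, standard error 0.085, adjusted p = 0.0160), *Ddit3* from 3601 to 7088 (0.98, standard error 0.077, adjusted p = 0.0164) and *Trib3* from 3489 to 6772 (0.96, standard error 0.126, adjusted p = 0.0263). *Gadd45a*, *Ern1*, *Snhg15*, *Asns* and *Atf4* were also higher, by 0.33 to 0.73. *Chac1*, *Ddit3*, *Trib3* and *Asns* are also targets of the transcription factor Atf4 in the stress response. *Gadd45b* was lower (−0.58), and so was a transcript (ENSMUST00000230446.1) that carries the symbol *Ddit3* but belongs to a separate gene identifier. It was listed at 0 in KD with 20.5 counts in WT.

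The annotation also allows transcripts to be chosen by structure. Of 156 tested protein-coding transcripts with an exon junction more than 50 bases after the stop codon, 7.69% were higher and 1.92% were lower, with a median of 0.0062. Of the other 25912 protein-coding transcripts, 6.68% were higher and 5.02% lower, with a median of 0.024. Of the 64 tested transcripts that are annotated as NMD substrates, 4 were higher and 1 was lower, with a median of −0.022. These shares called higher lie near that of the other protein-coding transcripts.

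**Figure D5:**
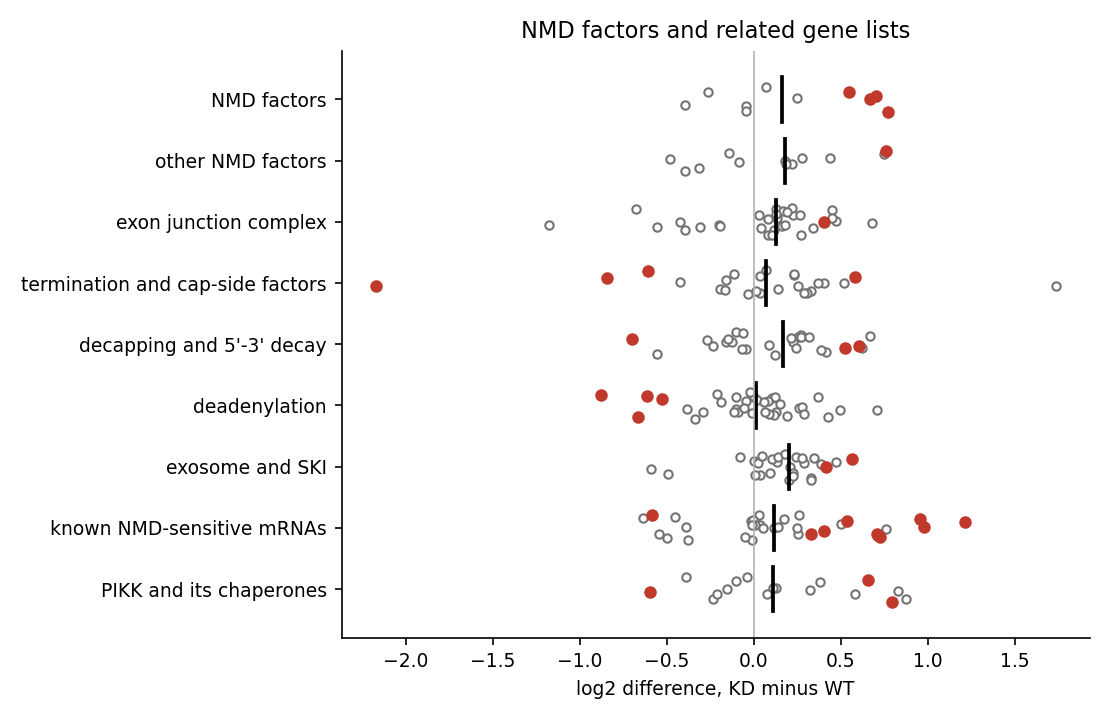
Log2 differences (KD minus WT) of transcripts that averaged 100 counts or more in the NMD factors and 8 related lists. Red points passed the test, white points did not, and black bars are medians. The NMD factors hold 4 red points, all above 0, the deadenylation list 4, all below 0, and the known NMD-sensitive mRNAs hold 8 above and 1 below 0.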

How the data were processed

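RNA-seq of NIH/3T3 cells (2 KD and 2 WT libraries) was analysed, grouped by the labelled condition. Per the labels, the processing notes name bcl2fastq 2.17, HISAT2, Sleuth and GRCm38, and the authors' methods add Kallisto for quantification. The transcriptome index is not given in the sources used here. The deposited values are natural logs of estimated counts, divided by the authors' size factors, plus 0.5, given as means over 4 libraries with their variances, including the uncertainty of assigning reads. Columns of single libraries numbered 0, so depth is unknown. The deposited p-values and q-values of the authors' comparison were not used, and of its effects only the sign was taken. The size of each difference was recovered from the variances, and it matched the deposited effect to within 3.1e-10 natural log units. The differences therefore equal the authors' effects in log2 units and are not an independent estimate. The deposited gene table was not used.

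Differences were divided by the natural log of 2 and tested in limma 3.58.1 (R 4.3.3, moderated test with a trend on the mean, two-sided, Benjamini-Hochberg adjustment over 34200 transcripts, threshold 0.05), on 2 residual and 2.67 prior degrees of freedom. It was tested on data with known changes before use. Alternatives were no trend, robust moderation, a minimum mean of 100, centring on the median, and centring on 50 classes of GC content. Positions and features came from GENCODE M21 (GRCm38), matched by identifier and version for 98.6% of transcripts, and promoters from RefSeq.

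The members and lists were chosen with earlier results of these data known. All member transcripts were named, and in each list the called genes with the 3 largest rises and falls, plus *Setd2*, *Etf1*, *Gspt1*, *Dhx34*, *Nbas* and *Pnrc2*. The remaining called NMD-sensitive genes, *Cnot6l*, and uncalled transcripts of called genes were named after their values were seen. 1 further gene was left out of the lists and is not reported here.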

Additional observations from a re-analysis of the deposited data

How the results depend on the processing

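No paired analysis was possible because the deposited table holds no columns of single libraries, and for the same reason no library could be left out in turn. With 2 libraries per group, calls rest on the variance borrowed across transcripts. Without a trend of that variance on the mean level, 127 transcripts were called (51 higher and 76 lower) and 0 NMD factor transcripts in either direction: *Smg5* was at 0.70 (adjusted p = 0.116), *Smg8* at 0.55 (adjusted p = 0.130), *Smg9* at 0.77 (adjusted p = 0.140) and Upf1-202 at 0.67 (adjusted p = 0.127), and each of the 8 related lists had 0 calls. The differences are unchanged by construction, and only their standard errors rose.

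Centred on GC content, 1968 transcripts were called (1045 higher and 923 lower). *Smg9* was at 0.58 without a call, and *Smg1* turned to 0.031. The exon junction, exosome and kinase lists then had 0 calls, the decapping list 1, and the termination and deadenylation lists 2 each. With a minimum mean of 100, 2926 transcripts were higher, and 1 NMD factor transcript was lower, *Upf3b* at −0.39 (adjusted p = 0.0303). Of the 18808 transcripts in that fit, 26.4% were called in either direction, and the list counts are to be read against this share. Calls were then 3 of 12 transcripts in the other NMD factors, 5 of 31 in the exon junction list and 7 of 25 in the termination list. The decapping list had 6 of 26, the deadenylation list 7 of 36 and the exosome list 6 of 27. The kinase list had 5 of 17, and the known NMD-sensitive mRNAs had 13 of 33. Robust moderation gave 2 calls in the exon junction list. The cause of these changes was not tested. Over all alternatives, the adjusted p lay between 0.00508 and 0.116 for *Smg5*, between 0.0100 and 0.130 for *Smg8*, between 0.0147 and 0.140 for *Smg9* and between 0.00808 and 0.127 for Upf1-202. The summed levels of the 9 genes were unchanged with a minimum mean of 100. Centring on the median moved them by less than the spread within groups. They were not computed for the other alternatives. Centred on GC content, the single transcript of *Smg5* moved from 0.70 to 0.56, by more than its spread of 0.023.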
